A study of Talinum fruticosum with 24 samples.

Results

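The comparison described here is that of leaves sprayed with abscisic acid (ABA) against mock-sprayed leaves at 640 min, the only harvest of the series taken in the dark. Its members were chosen by the library titles: 2 ABA libraries and 2 mock libraries at 640 min, 4 of the 24 libraries of the series. The plants were waterleaf, named Talinum fruticosum in the labels and Talinum triangulare in the series record, aged 2 months, watered alike and grown under 12 h of light and 12 h of dark. The treated groups received 200 µM racemic ABA in dilute methanol with Tween-20 and the mock groups the same carrier without ABA. The first spray came 4 h into the light period and the second 4 h later. At 640 min the leaves had been in darkness for 2.67 h and 6.67 h had passed since the second spray. The groups used beside them are the ABA and mock leaves of the same spray course harvested at 40, 80, 160, 320 and 1280 min, all in the light, with 2 libraries each. The leaves of 40, 80 and 160 min were harvested before the second spray, and those of 320 and 1280 min after it. Each library pooled 2 leaves of 1 plant, and the 2 plants of a group were independent.

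ABA is the plant hormone of the drought response. It is sensed by receptors that, once bound, block a group of protein phosphatases, and so free kinases that act on ion channels and on transcription factors. In facultative CAM (crassulacean acid metabolism) plants such as waterleaf, drought can start a switch from C3 photosynthesis to fixation of carbon dioxide at night, with malic acid stored in the vacuole until the next day. The dark harvest therefore falls in the phase in which a leaf performing CAM takes up its carbon dioxide. ABA was sprayed here on watered plants, so the leaves were exposed to the hormone without the drought.

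The 4 night libraries held 19487377 to 20730996 counts, and between 18904 and 19030 features were detected in each. A feature is an identifier in the deposited lists. Identifiers are not paired with gene names in the files and none could be looked up, so neither the leaf label nor any pathway could be checked against marker genes, and the named features carry no known role. Levels are in CPM, counts relative to the total of the library after TMM correction for its composition, and differences are log2 fold changes, written log2FC. Across the tested features, log2 CPM of the mock replicates correlated at r = 0.9894 and of the ABA replicates at r = 0.9889, while an ABA and a mock library correlated at 0.9492 to 0.9538. Features are not independent of each other, and these values describe the libraries only. In whole leaves, fewer cells of a type and less RNA per cell cannot be told apart.

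At night, ABA leaves had higher levels of 1962 features and lower levels of 2381 than mock leaves, out of 17561 tested (11.2% and 13.6%; edgeR quasi-likelihood test, Benjamini-Hochberg adjusted p below 0.05). The median log2FC was 1.00 among the higher features, -0.95 among the lower ones and -0.02 over all tested features. Changes of at least 2-fold were seen in 982 higher features (5.59% of those tested) and 1085 lower ones (6.18%). The strongest changes were mostly increases: 123 features (0.7%) were at least 8-fold higher and 31 (0.177%) at least 8-fold lower. With the 16 higher and 2 lower features that had 0 counts in the other group set at their bound (a floor of 3 counts over the group), these counts were 114 and 30. The ABA and mock libraries did not overlap for 11826 features (67.3%), many of which did not pass the test, so that separation of the libraries was not read as a change.

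The number of calls rested on all 4 libraries. Without mock replicate 1, 972 features were higher. Lower features numbered 1469 and 1555 when mock replicate 1 or 2 was left out, and 1379 and 1274 when ABA replicate 1 or 2 was. Without ABA replicate 2 more features were higher than lower, 1534 against 1274, or 54.6% of the calls. With scaling to library size alone the overall median log2FC moved to 0.20, and the split turned, with 2893 features higher and 1450 lower, so that higher features made up 66.6% rather than 45.2% of the calls. Directions below are relative to the TMM scaling.

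**Figure D1:**
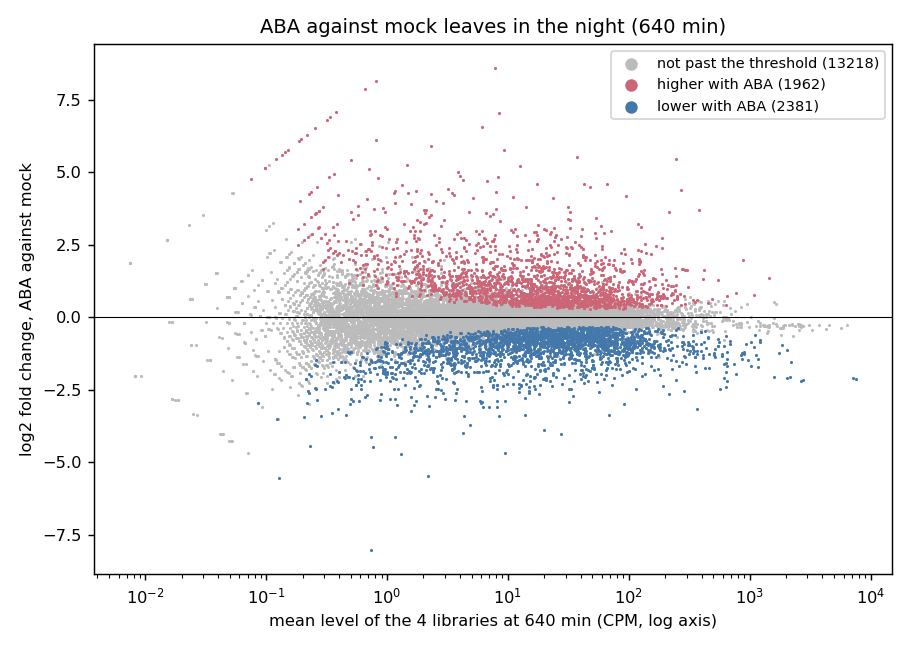
Log2 fold change of ABA against mock leaves at 640 min (vertical axis) against the mean level of the 4 night libraries in CPM (horizontal log axis), 1 point per tested feature. Of the coloured points, 1962 lie above and 2381 below 0, and the most abundant features on the right that passed the test lie mostly below it.

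Of the abundant transcripts that passed the test, most were lower with ABA. Features were ranked by their mean level in the 10 mock libraries of the other harvests. These libraries give no mean to the night comparison, but they enter its filter and its estimate of spread. In this ranking 52 of the top 100 were lower with ABA at night and 1 was higher, with a median log2FC of -0.95, and 47 were not called. In the class of 900 features that followed in rank, 300 were lower (33.3%), 102 higher (11.3%) and 498 not called. Of the 4000 features next in rank, 824 were lower (20.6%) and 589 higher (14.7%), with a median of -0.002. Over all tested features 13.6% were lower and 11.2% higher. Among the 12561 least abundant features the directions were close to even, with 1205 lower and 1270 higher and a median of -0.01. Under scaling to library size alone the top 100 held 51 lower and 4 higher features, while the 12561 held 675 lower and 1857 higher, with a median of 0.21, so the even split rests on the TMM scaling. The median of the 900 features moved from -0.24 to -0.01 under that scaling, and the 4000 turned to 491 lower and 885 higher.

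The counts of ABA leaves were spread over more features. In the mock libraries 434 and 527 features held 50% of all counts, against 828 and 711 in the ABA libraries. The 10 most abundant features of each library held 9.66% and 8.48% of the counts in mock leaves and 5.49% and 6.50% in ABA leaves. On both measures the ABA libraries lay apart from the mock libraries.

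Features are named by the change in level they made at night. Only features called at night, at least 2-fold different, with 10 or more counts in every night library and with no overlap between the ABA and mock libraries were eligible, so that separation of the groups at night was set by the choice. Among them the largest falls in CPM were those of KMT18550 and KMT17519. KMT18550 stood at 13148 and 11566 CPM in the mock libraries and at 3448 and 2231 CPM in the ABA libraries. Its log2FC was -2.12 ± 0.38 (SE, n = 2 per group; edgeR adjusted p = 0.000477). KMT17519 stood at 12483 and 10857 CPM in mock and at 3302 and 2115 CPM in ABA leaves. It had a nearly equal log2FC of -2.11 ± 0.38 (SE; edgeR adjusted p = 0.000566).

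KMT18550 and KMT17519 ran in parallel throughout the series. The ratio of KMT17519 to KMT18550 lay between 0.885 and 1.25 over the 24 libraries, with a median of 0.995. No source used here says whether they are similar sequences that share reads, so they may not be separate observations. Neither passed the test at 40, 80 or 160 min. At 320 min the log2FC values were -1.37 ± 0.37 and -1.31 ± 0.37 (SE; edgeR adjusted p = 0.0104 and 0.0142), and at 1280 min they were -3.53 ± 0.40 and -3.31 ± 0.40 (SE; edgeR adjusted p = 1.18e-06 and 2.57e-06). The night values stood between those of the afternoon and the next morning, but the night effect of KMT18550 was not called different from either (edgeR adjusted p = 0.579 against 320 min and 0.0604 against 1280 min), nor was that of KMT17519 (0.557 and 0.114).

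The largest rises in CPM were those of KMT01854 and KMS98036. KMT01854 stood at 867 and 748 CPM in the mock libraries and at 2034 and 2137 CPM in the ABA libraries. The log2FC was 1.37 ± 0.21 (SE, n = 2 per group; edgeR adjusted p = 0.000156). KMT01854 had a mean mock level of 1725 CPM at 40 min, 353 CPM at 320 min and 3549 CPM at 1280 min. From 320 to 640 min it rose in mock leaves by a log2FC of 1.20 ± 0.21 (SE; edgeR adjusted p = 0.000326). In ABA leaves it rose less over the same span, by 0.66 ± 0.21 (SE; edgeR adjusted p = 0.0232), from a mean of 1320 CPM. The difference of these changes, -0.54 ± 0.30 (SE), did not pass the test (edgeR adjusted p = 0.455).

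KMS98036 stood at 335 and 380 CPM in the mock libraries at night and at 1645 and 1184 CPM in the ABA libraries. The difference was a log2FC of 1.99 ± 0.26 (SE, n = 2 per group; edgeR adjusted p = 3.17e-05). Its ABA effect passed the test at each harvest from 80 min on, with log2FC of 1.30 and 2.33 at 80 and 160 min and of 3.05 at 320 min, and a value of 2.40 in the morning. Between 320 and 640 min its level in ABA leaves changed by -0.05 ± 0.25 on the log2 scale (SE; edgeR adjusted p = 0.918), while in mock leaves it rose by 1.02 ± 0.26 (SE; edgeR adjusted p = 0.00503). That difference did not pass the test either (edgeR adjusted p = 0.15).

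**Figure D2:**
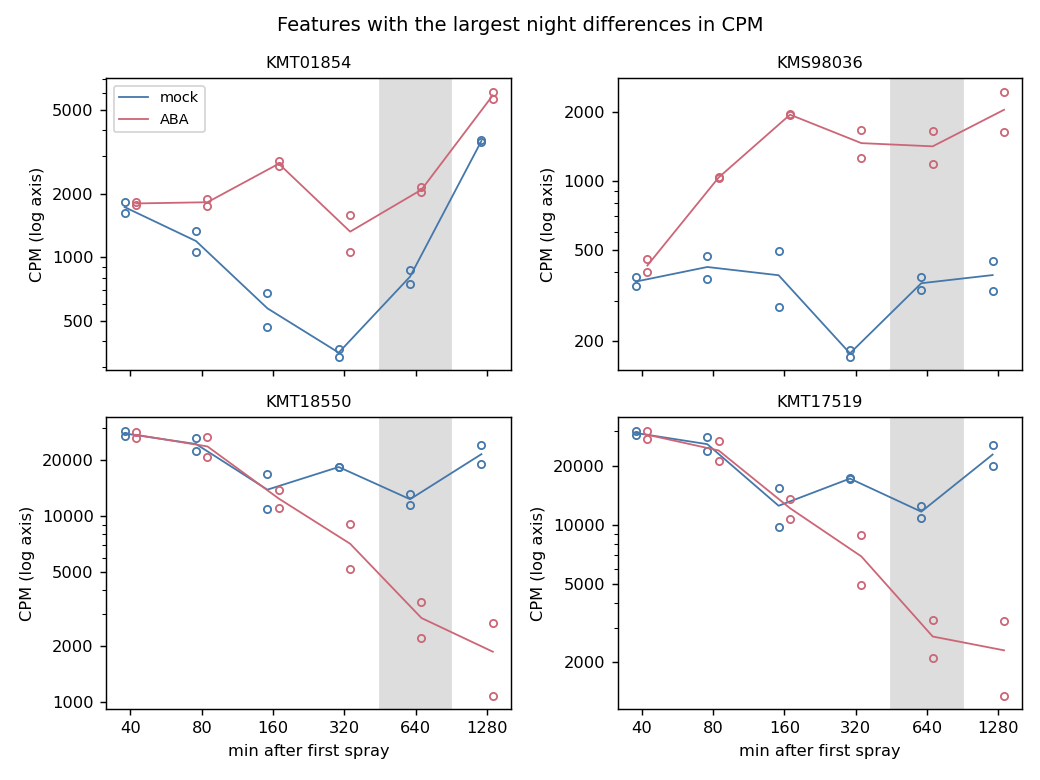
Levels of the 2 features with the largest rise and the 2 with the largest fall in CPM at night, by harvest (horizontal axis, min after the first spray, each step a doubling; vertical log axis, CPM). Circles are libraries, lines join group means (n = 2) and grey marks the dark harvest. KMT18550 and KMT17519 separate from 320 min on, and KMT01854 and KMS98036 are higher with ABA at night in both libraries.

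Many of the night responses were already present in the afternoon, and their median size was larger at each harvest up to the night. The harvests compared here share no library, but the fit gives each feature 1 estimate of spread for all harvests, so calls at different harvests are not fully independent. The 1962 features higher at night started from a median log2FC of 0.06 at 40 min. The median was 0.17 and 0.56 at the next harvests, 0.78 in the afternoon at 320 min, 1.00 at night and 0.71 in the morning. The 2381 features lower at night had medians of -0.04, -0.09, -0.29 and -0.64 over the same 4 harvests before the night, then -0.95 at night and -1.05 at 1280 min. The night value is that of the harvest at which the features were selected.

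Of the features higher at night, 58.1% were also higher at 320 min, and they made up 47.6% of the features higher at that harvest (13.6% of all tested features were higher there). At 1280 min 54.8% were higher (23.3% of all tested features were), and 172 of the 1962 were lower. The shared features made up 26.3% of the list higher at 1280 min, beside 11.2% of all tested features higher at night. Of the features lower at night, 53.8% were lower at 320 min (12.2% of all tested features were). They made up 59.8% of that list, beside 13.6% of all tested features lower at night. At 1280 min 67.3% were lower (22.2% of all tested features were), and 127 of the 2381 were higher. The shared features made up 41.2% of the list lower at 1280 min, again beside 13.6% of all tested features.

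A smaller group was first called in the dark. No earlier harvest gave a call in either direction for 616 features higher at night and 926 lower, and no other harvest at all for 291 and 336. Over all tested features the share called at the 4 earlier harvests was 0.131%, 5.92%, 13.6% and 25.8%, and in the morning it was 45.5%. A call at 1 harvest does not show a difference between harvests. The night effect was tested against the mean effect of the other 5 harvests. It was more positive for 81 of the 291 (as for 2.61% of all tested features) and more negative for 72 of the 336 (3.68%). These features were chosen by their night call, which is part of that difference, so the counts are a description and no support for a response particular to the dark. Elapsed time, darkness and the time since the second spray changed together at 640 min and cannot be told apart. The other 5 harvests also mix leaves taken before and after the second spray.

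**Figure D3:**
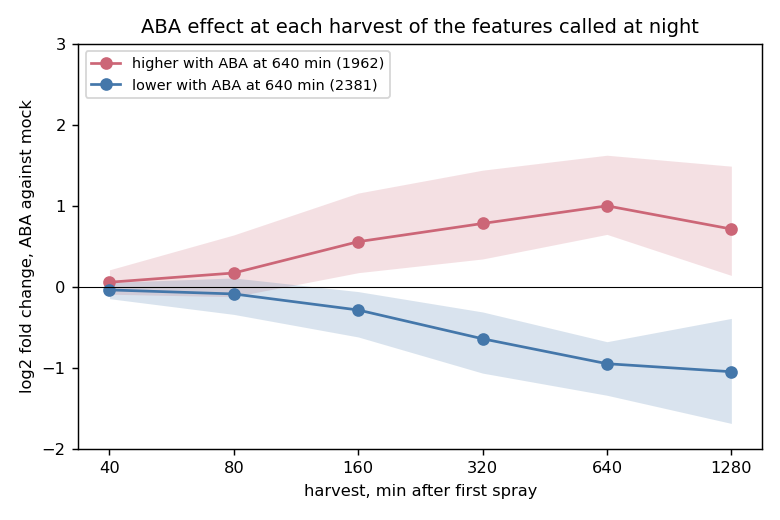
Median log2FC of ABA against mock leaves at each harvest (points; horizontal axis in min after the first spray, each step a doubling) for the features called higher or lower at 640 min, with the quartile range shaded. The medians move away from 0 from 40 to 640 min, where the features were selected, to 1.00 and -0.95.

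ABA and mock leaves shared many of their changes from afternoon to night. From 320 to 640 min, 2811 features rose and 2998 fell in mock leaves (16% and 17.1% of those tested), and 2531 rose and 2976 fell in ABA leaves (14.4% and 16.9%). These changes rest on different libraries. Both treatments shared 1605 of the rises, 57.1% of the mock list and 63.4% of the ABA list, and 1947 of the falls, 64.9% and 65.4%. Only 19 features rose in mock and fell in ABA leaves, and 14 did the reverse. The test of the difference itself, the ABA effect at 640 min against that at 320 min, called 317 features, with a positive difference for 88 (0.501%) and a negative one for 229 (1.3%).

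This count depended on single libraries. It was 110 and 111 without mock replicate 1 or 2 of 640 min, and 169 and 110 without ABA replicate 1 or 2 of 640 min. Without mock replicate 1 or 2 of 320 min it was 94 and 107. It was 37 without both second libraries of 320 min, and DESeq2 called 714.

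Of the 229 features with a negative difference, 105 were higher with ABA at 320 min and not called at night, and 32 were higher at both harvests. A further 62 were not called at 320 min and lower at night, 23 turned from higher to lower and 7 were lower at both. Their median log2FC was 0.87 at 320 min and -0.26 at night. In mock leaves 116 of them rose and 63 fell from afternoon to night, with a median log2 change of 0.46, and in ABA leaves 22 rose and 132 fell, with a median of -0.77.

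Of the 88 features with a positive difference, 29 were not called at 320 min and higher with ABA at night, and 10 were higher at both harvests. Another 31 were lower at 320 min and not called at night, 14 turned from lower to higher and 4 were lower at both. Their median log2FC was -0.83 at 320 min and 0.80 at night. From afternoon to night 56 of them fell in mock leaves and 46 rose in ABA leaves. These effects and changes make up the difference by which the features were chosen, so they describe the features and were not tested again.

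KMT18757 and KMT07023 showed the largest negative differences among features with 10 or more counts in each library of both harvests. KMT18757 stood at 35.4 and 33.8 CPM in mock leaves and at 121 and 163 CPM in ABA leaves at 320 min. At night its mock libraries held 33.1 and 40.3 CPM and its ABA libraries 30.5 and 21.6 CPM. The groups were far apart in the afternoon, and at night the ABA libraries lay just below the mock libraries without passing the test (log2FC -0.49 ± 0.22, SE; edgeR adjusted p = 0.109). The ABA effect differed by -2.53 ± 0.31 on the log2 scale (SE, n = 2 per group; edgeR adjusted p = 0.000372). At 1280 min KMT18757 was again higher with ABA, by a log2FC of 1.80 ± 0.22 (SE; edgeR adjusted p = 2.51e-06).

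KMT07023 stood at 1.60 and 1.34 CPM in mock leaves and at 45.8 and 59.7 CPM in ABA leaves at 320 min. At night it stood at 7.19 and 10.8 CPM in mock and at 15.4 and 18.9 CPM in ABA leaves. The ABA libraries were the higher at both harvests, and the difference of effects was -4.23 ± 0.58 (SE; edgeR adjusted p = 0.00173). That call was lost without both second libraries of 320 min (adjusted p = 0.0572, in a range of 3.57e-10 to 0.0572 over its alternatives). At 80, 160 and 1280 min its ABA effect passed the test, with log2FC of 3.58, 3.00 and 3.16. At night it was 0.93 ± 0.36 (SE; edgeR adjusted p = 0.076).

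Under the same minimum, the largest positive differences were those of KMS95001 and KMT07488. KMS95001 was a low feature, at 2.67 and 2.16 CPM in mock leaves and 0.422 and 0.593 CPM in ABA leaves at 320 min. At night it stood at 1.14 and 0.429 CPM in mock and at 2.72 and 1.71 CPM in ABA leaves. The order of the groups was reversed between the harvests without overlap at either, a difference of 3.76 ± 0.69 (SE; edgeR adjusted p = 0.00808). The adjusted p was 0.0687 without both second libraries of 320 min, the highest of a range that began at 9.62e-06.

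KMT07488 fell with ABA in the afternoon, from 19.0 and 16.7 CPM in mock to 4.03 and 2.97 CPM in ABA leaves (edgeR adjusted p = 0.00599). At night it stood at 5.53 and 6.30 CPM in mock and at 7.75 and 15.7 CPM in ABA leaves, a log2FC of 0.98 ± 0.53 that did not pass the test (SE; edgeR adjusted p = 0.207). The difference of effects was 3.33 ± 0.77 (SE; edgeR adjusted p = 0.0385). This call was lost in 12 of 17 alternatives, among them 7 of the 8 that left out a library of 320 or 640 min, with adjusted p from 0.000454 to 0.248.

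By the next morning the response had changed for many more features. The ABA effect at 640 min differed from that at 1280 min for 3672 features. The log2FC at night was the more positive for 1841 (10.5%) and the more negative for 1831 (10.4%). This even split is relative to the TMM scaling, and with scaling to library size alone the test called 5183 features. Of the 1841, 1492 were lower with ABA in the morning and 401 of these were already lower at night. Of the 1831, 1576 were higher with ABA in the morning and 157 of these were already higher at night. A turn of the effect was called for 172 features that were higher at night and lower in the morning, and for 127 that were lower at night and higher in the morning.

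In mock leaves the features of each list mostly changed in the same direction between night and morning. In ABA leaves rises and falls were nearer in number, and the median changes were close to that of all features. From 640 to 1280 min, 4847 features rose and 5458 fell in mock leaves (27.6% and 31.1% of those tested), against 4468 and 4677 in ABA leaves (25.4% and 26.6%). Of the 1841 features, 1373 rose in mock leaves, with a median log2 change of 1.28. In ABA leaves 658 rose and 592 fell, with a median of 0.03. Of the 1831 features, 1285 fell in mock leaves with a median of -1.01, and in ABA leaves 530 fell and 702 rose with a median of 0.13. The medians over all tested features were -0.07 in mock and -0.02 in ABA leaves. The changes from night to morning make up the difference by which the 1841 and 1831 features were chosen, as do their ABA effects. They describe the features and were not tested again.

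KMT00526 and KMT20652 changed in opposite directions in the 2 treatments between night and morning. KMT00526 stood at 3.32 and 3.79 CPM in mock leaves at night and at 35.8 and 28.6 CPM in ABA leaves, a log2FC of 3.17 ± 0.29 (SE, n = 2 per group; edgeR adjusted p = 1.18e-06). In the morning it stood at 19.3 and 31.3 CPM in mock and at 11.7 and 8.67 CPM in ABA leaves. Its level rose in mock leaves by a log2FC of 2.83 ± 0.29 and fell in ABA leaves, with a log2FC of -1.66 ± 0.27 (SE; edgeR adjusted p = 1.74e-07 and 4.93e-05). The order of the groups turned, and the difference of effects was 4.48 ± 0.40 (SE; edgeR adjusted p = 6.73e-07). It had been higher with ABA at 80, 160 and 320 min too, with log2FC of 2.11, 3.00 and 3.17.

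KMT20652 rose in mock leaves from afternoon to night, from 6.13 and 6.10 to 36.6 and 26.0 CPM, and was back at a mean of 1.56 ± 0.0913 CPM in the morning (SD, n = 2). In ABA leaves it stood at 8.41 and 9.94 CPM at night and at 10.6 and 20.2 CPM in the morning. From night to morning the log2FC was -4.32 ± 0.37 in mock leaves and 0.74 ± 0.29 in ABA leaves (SE; edgeR adjusted p = 1e-08 and 0.0405). ABA leaves were thus lower at night, by a log2FC of -1.77 ± 0.29 (SE; edgeR adjusted p = 0.00027), and higher in the morning, by 3.30 ± 0.36 (SE; edgeR adjusted p = 9.24e-07). The difference was -5.07 ± 0.47 (SE; edgeR adjusted p = 8.52e-07). At 320 min it did not pass the test, with a log2FC of -0.23 ± 0.31 (SE; edgeR adjusted p = 0.645).

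Among features with 10 or more counts in each library of 640 and 1280 min, KMS95001 also had the largest positive difference between night and morning. Its morning levels were 6.44 and 6.68 CPM in mock and 0.445 and 0.872 CPM in ABA leaves, and the difference was 4.83 ± 0.67 (SE; edgeR adjusted p = 6.68e-05). KMT06598 had the largest negative one under the same minimum. It stood at 3.28 and 4.09 CPM in mock and 8.81 and 6.11 CPM in ABA leaves at night, and at 0.949 and 1.56 against 115 and 186 CPM in the morning. The ABA libraries were the higher at both harvests, but at night without passing the test (edgeR adjusted p = 0.216), and the difference was -5.88 ± 0.89 (SE; edgeR adjusted p = 0.000253).

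Against the mean of the other 5 harvests, the night effect was more positive for 459 features (2.61%) and more negative for 646 (3.68%). Of the 459, 382 were higher with ABA at night (11.2% of all tested features were), and of the 646, 502 were lower (13.6%). The night effect is part of this difference, so these directions are largely fixed by the choice of the features. The mean also includes 40 and 80 min, at which only 0.131% and 5.92% of all tested features were called. A feature that responded equally at night and at later or neighbouring harvests can therefore be among the 1105. Leaving out mock replicate 1 or 2 of 640 min took the total of 1105 to 225 or 473, and leaving out ABA replicate 1 or 2 took it to 495 or 395.

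Features are named here only if each of the 24 libraries held 10 or more counts. KMT13553 was highest relative to mock leaves in the dark, and was already called higher in the afternoon. Its mock level was 35.0 and 33.4 CPM at 40 min, 2.92 and 3.03 CPM at 320 min, 1.18 and 1.15 CPM at night and 22.2 and 22.5 CPM in the morning. In ABA leaves it stood at 29.4 and 36.6 CPM at 40 min, 6.43 and 10.3 CPM at 320 min, 11.7 and 14.7 CPM at night and 17.8 and 35.5 CPM in the morning. The treatments overlapped at 40 min and in the morning. At 320 min they lay apart by a log2FC of 1.48 ± 0.29 (SE; edgeR adjusted p = 0.00131), and at night by 3.49 ± 0.32 (SE; edgeR adjusted p = 1.18e-06). The night effect was the larger by 2.01 on the log2 scale (edgeR adjusted p = 0.0244). The difference from the mean of the other harvests was 3.06 ± 0.34 (SE; edgeR adjusted p = 7.12e-05).

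KMT06903 had the largest positive difference among these features, 3.91 ± 0.92 (SE; edgeR adjusted p = 0.0195), but the less stable call. It stood at 3.83 and 3.03 CPM in mock and at 73.9 and 90.7 CPM in ABA leaves at night. In the morning the levels were 31.3 and 39.3 CPM in mock and 300 and 1269 CPM in ABA leaves, with the ABA libraries far from each other. The ABA effect was a log2FC of 4.58 ± 0.87 at night and 4.47 ± 0.83 in the morning (SE; edgeR adjusted p = 0.0012 and 0.000366), and these 2 effects were not called different (0.11 on the log2 scale; edgeR adjusted p = 0.959). The mean over the other harvests also holds the value of -2.48 ± 0.88 at 80 min (SE; edgeR adjusted p = 0.125), where the mock libraries stood at 32.6 and 3.76 CPM. The call of the difference was lost when any single night library was left out, with adjusted p of 0.137 and 0.121 without mock replicate 1 or 2 and of 0.0519 and 0.0791 without ABA replicate 1 or 2. Over its alternatives the adjusted p ran from 0.000986 to 0.137.

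Among the features with a more negative night effect and the same minimum of counts, KMT15838 and KMT06573 had the largest differences. KMT15838 stood at 43.4 and 31.5 CPM in mock and at 3.57 and 1.44 CPM in ABA leaves at night, a log2FC of -3.90 ± 0.48 (SE; edgeR adjusted p = 3.47e-05). Its difference from the other harvests was -2.78 ± 0.51 (SE; edgeR adjusted p = 0.00544), and -2.22 with an adjusted p of 0.0601 without ABA replicate 2, the highest of a range from 3.12e-07. It was also lower with ABA at 320 and 1280 min, by log2FC of -2.16 and -2.56 (edgeR adjusted p = 0.00143 and 0.00424). The mean of the other harvests also holds its values of 0.004, -0.37 and -0.52 at 40, 80 and 160 min, which did not pass the test.

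KMT06573 stood at 6.64 and 6.07 CPM in mock and at 1.15 and 0.928 CPM in ABA leaves at night, a log2FC of -2.61 ± 0.35 (SE; edgeR adjusted p = 3.94e-05). At 160 min the order was the opposite, with 3.62 and 2.44 CPM in mock and 7.92 and 7.25 CPM in ABA leaves (edgeR adjusted p = 0.0113). At the other 4 harvests it did not pass the test. The difference of the night effect was -2.57 ± 0.39 (SE; edgeR adjusted p = 0.000921).

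**Figure D4:**
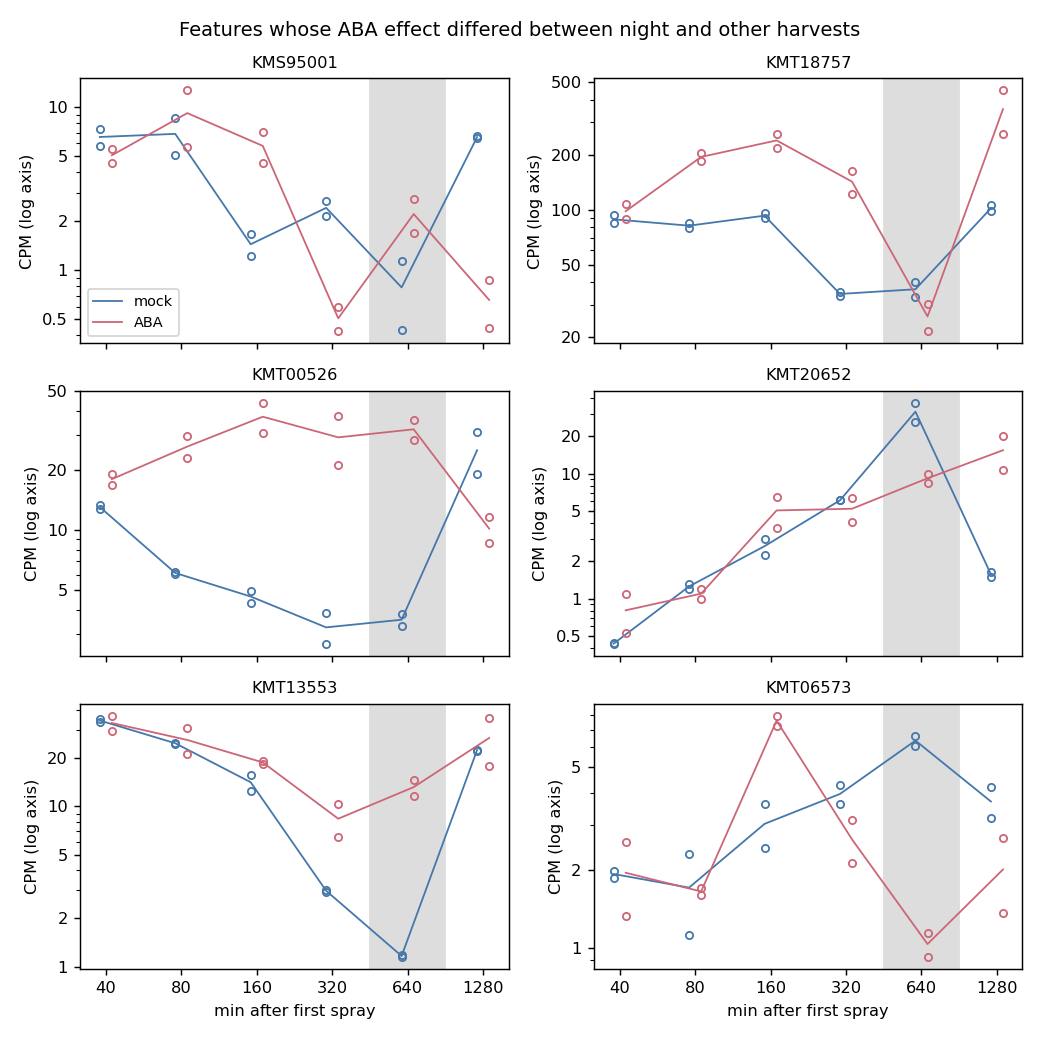
Levels by harvest (min after the first spray, each step a doubling; vertical log axis, CPM) of 6 named features, those with the lowest adjusted p in each direction for the night effect against 320 min (top), 1280 min (middle) and the mean of the other harvests (bottom). Circles are libraries, lines join group means (n = 2) and grey marks the dark harvest, where KMT18757 no longer passed the test and KMT13553 was furthest above mock leaves.

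The night response also varied with the time of day at which a feature is high in mock leaves. To avoid the night libraries, features were grouped by mock leaves of 1280 min against mock leaves of 320 min, that is early against late in the light period. Of the 1724 features at least 4-fold higher in the morning (9.82% of those tested), 444 were higher with ABA at night and 274 lower. That is 25.8% and 15.9%, against a background of 11.2% and 13.6%, and their median log2FC was 0.16. Of the 1797 features at least 4-fold lower in the morning (10.2%), 62 were higher with ABA at night (3.45%) and 325 lower (18.1%), with a median of -0.22.

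The share of features higher with ABA at night was 2.66% where the morning level was over 8-fold below the afternoon level and 27.2% where it was over 8-fold above it. The share of lower features moved less, between 11.5% and 19.4%. With scaling to library size alone, morning-high features held 536 higher and 195 lower, and morning-low features 105 higher and 193 lower, with a median of 0.01 beside 0.20 over all features.

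A second grouping used mock leaves of 320 min against those of 40 min. Of the 859 features that fell at least 4-fold from late morning to afternoon (4.89%), 246 were higher with ABA at night (28.6%) and 109 lower (12.7%). Of the 748 that rose at least 4-fold (4.26%), 34 were higher (4.55%) and 133 lower (17.8%). The median log2FC values at night were 0.34 and -0.30. The groupings share the mock libraries of 320 min and are not independent of each other.

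**Figure D5:**
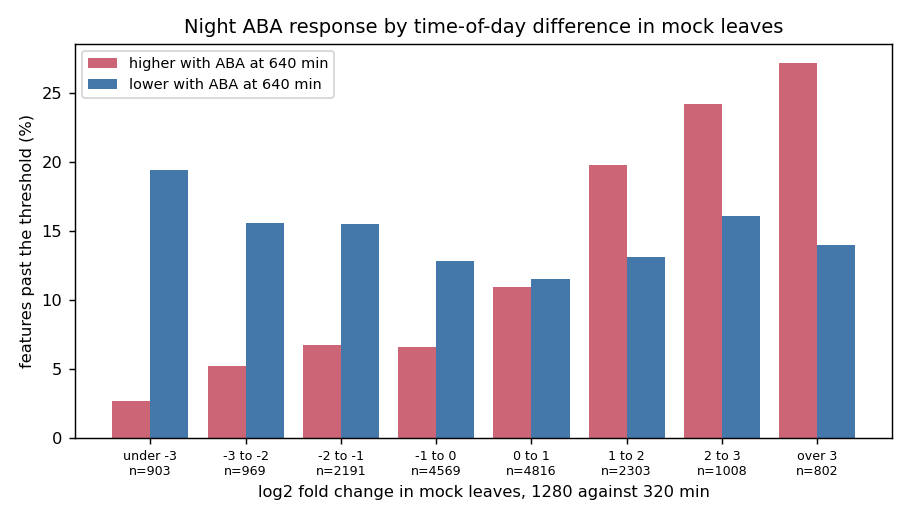
Share of features (%) called higher or lower with ABA at 640 min, by their log2FC between mock leaves of 1280 and 320 min, with the number of features under each pair of bars. The share higher with ABA runs from 2.66% in the lowest class to 27.2% in the highest.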

How the data were processed

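The authors deposited, per the labels, 1 list of raw read counts per feature for each of the 24 leaf libraries, without normalisation, and features without reads were taken as 0 counts. Stranded mRNA libraries were read as single ends, per the labels' protocols. CASAVA, Trimmomatic and DESeq2 are named in the submitters' processing notes. No source used here gives the counting tool, reference, use of strand or lanes. Counts of similar or overlapping features may therefore be split or shared, and no batch could be examined.

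The counts were fitted with edgeR 4.0.16 in R 4.3.3. An expression filter by group (minimum count 10) left 17561 of 20617 features. TMM factors of the night libraries ran from 1.38 to 1.70. A robust quasi-likelihood model with 1 mean for each of 12 groups was fitted to all 24 libraries (12 residual degrees of freedom, common biological coefficient of variation 15.69%). Tests are two-sided F-tests with Benjamini-Hochberg adjustment over all tested features and a threshold of 0.05. Each SE is the log2 value divided by the square root of its F, so it restates the test. Exact permutation of 2 against 2 libraries cannot go below p = 0.333 and was not used. DESeq2 1.42.0 and other settings were alternatives.

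Named features were those with the largest night rise and fall in CPM (at least 2-fold, 10 or more counts in each night library, groups not overlapping), and those with the largest positive and negative difference in each of 3 interactions (10 or more counts in each library of the harvests compared), 2 per direction. The lists of 131 gene symbols in 8 classes matched 0 identifiers and gave no result. Members, lists and rules were chosen with earlier results of these data known. The libraries of a group came from different plants, and night replicates differed beyond counting noise (chi-square over its degrees of freedom 14.52 in mock and 23.5 in ABA leaves).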

Additional observations from a re-analysis of the deposited data

Results flagged for a closer look

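The effect of ABA differed between harvests, by the interaction test of edgeR, for 317 features between 640 and 320 min, for 3672 between 640 and 1280 min and for 1105 between 640 min and the mean of the other 5 harvests. Between 640 and 320 min the log2 difference was 3.76 for KMS95001, 3.33 for KMT07488, -4.23 for KMT07023 and -2.53 for KMT18757. Between 640 and 1280 min it was 4.83 for KMS95001, 4.48 for KMT00526, -5.88 for KMT06598 and -5.07 for KMT20652. Against the mean of the other harvests it was 3.91 for KMT06903, 3.06 for KMT13553, -2.78 for KMT15838 and -2.57 for KMT06573. A test for single outlying libraries was not made, since each group holds 2.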

How the results depend on the processing

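With 2 libraries per group, counts of calls moved with each library left out: 972 to 1534 features higher at night, 1274 to 1555 lower and 2441 to 2949 in all, 94 to 282 for the difference from 320 min and 225 to 495 for the difference from the other 5 harvests, while that from 1280 min ran from 2545 to 4378. Leaving out libraries of 320 and 1280 min was chosen after seeing the data. At a threshold of 0.01 there were 1142 higher and 1505 lower features (2647 in all), and 87, 2018 and 338 for the 3 differences. Library size alone gave 1450 lower features, 5183 for the difference from 1280 min and 193 for that from 320 min. That last count was also 37 without both second libraries of 320 min, 602 with the libraries of 320 and 640 min alone, 714 with DESeq2 and 172 with a replicate block within harvests. For these counts the cause was not tested. At 640 min replicate numbers showed no pairing: deviations of same-numbered libraries correlated at 0.01407 across features. Pairing at the other harvests was not examined in this way. The block called 1709 higher and 2155 lower features at night. Of 240 values of named features under alternatives, 220 kept the call, 20 lost it and 0 changed sign. Features with few counts are limited by depth.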

Other observations

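Some features were counted in the dark in only a single treatment. Of the features higher with ABA at night, 16 had 0 counts in both mock libraries, and their summed ABA counts ran from 10 to 107, with a median of 25.5. Of those lower, 2 had 0 counts in both ABA libraries, with 15 and 86 counts over the mock libraries. All are low features, and a count of 0 does not show absence of the transcript.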
